A study of Mus musculus with 3 samples.

Results

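Interleukin 2 and the receptor genes around it were followed through the leukocytes of inflamed peripheral nerve. The genes were chosen by name: the cytokine Il2, the chains of its receptor Il2ra, Il2rb and Il2rg, and the partner chains Il7r and Il4ra, which is 6 of the 17168 genes in the count table. All 6 were counted, and all 6 passed the filter on low counts in the tests between cell classes. The cells were the CD45+ fraction of sciatic nerves, taken after cardiac perfusion and collagenase digestion from mice of genotype NOD.AIRE GW/+ aged 15 weeks. Every library used here has this genotype and age, so cell types of the same nerves are compared and no effect of genotype is measured. Such mice carry a changed copy of Aire, which lets the thymus show tissue antigens, on the diabetes-prone NOD background. Libraries 1 and 2 were read from the 3′ end of transcripts and library 3 from the 5′ end. The labels do not say whether a library is 1 animal or several. In the main tests, shifts shared by all cell groups of a library are taken out. The p-values then measure how differences between cell groups vary across these libraries, which may in part be technical.

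Interleukin 2 is made mainly by activated conventional CD4 T cells and acts as a growth factor for lymphocytes. Its receptor is built from an alpha chain (Il2ra, CD25) that raises affinity, a beta chain (Il2rb) and the common gamma chain (Il2rg), and the latter pair signals through JAK kinases and STAT5. The beta chain also serves interleukin 15, and the gamma chain pairs with Il7r for interleukin 7, with Il4ra for interleukin 4 and with further chains for interleukins 9, 15 and 21. Regulatory T cells (Treg) are known for high CD25 and for taking up interleukin 2 made by other cells.

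The genes lie apart in the genome (mm10, GENCODE M21). Il2 spans chr3:37120523-37125959 on the minus strand, Il2ra chr2:11642807-11693193 on the plus strand and Il2rb chr15:78479256-78495271 on the minus strand. Il2rg spans chrX:101264378-101268255 and Il7r chr15:9505788-9530176, both on the minus strand, and Il4ra chr7:125552120-125579474 on the plus strand. The Il2, Il2ra, Il2rg and Il4ra spans each overlap another annotated gene (Adad1, Gm37881, Gm20489 and Gm44876), and how reads in the overlaps were assigned is not given in the sources used here. The RefSeq promoter table (GRCm38.p6) holds 5 of the 6 genes. The 250 bases before the start of Il2 and of Il2ra are shown because these genes had their highest class levels in different T cells. Capitals mark GGAAA on either strand (TTTCC where it lies on the other strand), the core that NFAT and related factors bind.
Il2, chr3:37125955-37126204, minus strand: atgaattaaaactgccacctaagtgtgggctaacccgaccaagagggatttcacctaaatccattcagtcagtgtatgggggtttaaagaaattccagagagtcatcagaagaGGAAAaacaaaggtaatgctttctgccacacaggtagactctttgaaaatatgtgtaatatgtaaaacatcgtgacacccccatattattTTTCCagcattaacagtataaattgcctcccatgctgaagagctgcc
Il2ra, chr2:11642542-11642791, plus strand: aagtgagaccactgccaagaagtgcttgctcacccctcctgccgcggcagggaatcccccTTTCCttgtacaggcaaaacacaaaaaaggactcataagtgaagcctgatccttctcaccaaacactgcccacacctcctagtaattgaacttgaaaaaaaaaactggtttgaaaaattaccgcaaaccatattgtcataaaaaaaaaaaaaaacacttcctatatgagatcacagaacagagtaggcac
GGAAA was found 2 times before Il2 and 1 time before Il2ra. It is a common word: 55.6% of 32851 promoters of this length hold at least 1 match and 21.4% hold 2 or more. The STAT word TTCNNNGAA, which reads the same on both strands, had 1 match before Il7r and none in these windows of Il2, Il2ra, Il2rg and Il4ra, and 7.02% of all promoters hold it. The AP-1 word TGANTCA, also the same on both strands, had no match in the 5 windows against 6.75% of all promoters.

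The table holds 11640 cells, with 6033, 2333 and 3274 in libraries 1, 2 and 3 and medians of 3011, 4156 and 3713 UMIs (counted transcripts) per cell. The authors' cell table gives 10 class names and 14 clusters. A level below is the UMIs of a gene per 1000000 UMIs of a class or cluster (CPM), and the 8 classes that reached 20 cells in each library entered the tests. The names were drawn from the same counts, so a test between classes measures how far they lie apart and does not show that they are distinct. Foxp3, the defining regulator of Treg cells, stood at 469, 429 and 582 CPM in the class named Treg and at 29.4, 12.3 and 57.2 in the class named Cd4. The class named Mixed held nearly all Il17a, at 342, 1477 and 3476 CPM. Libraries 1 and 2 share 6 cell barcodes and no others are shared.

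Most Il2 UMIs came from 1 cluster of CD4 T cells. The Cd4 class held 634 of 731 Il2 UMIs, which is 87.0% ± 2.87 (SD, n = 3) per library, and the other 9 classes held the rest. Within it, cluster 0 held 623 UMIs in 221 of 2225 cells, or 85.4% ± 1.45 of all Il2 UMIs. Il2 in cluster 0 stood at 47.7, 101 and 111 CPM in libraries 1, 2 and 3, above each other cluster in every library. Library 1 was the lowest of the 3. The CD4 cluster 6, which is rich in Il10 (751, 1090 and 569 CPM, against 14.8, 12.9 and 34.6 in cluster 0), had no Il2 UMI in its 592 cells. Over the 3 libraries a count of 0 allows up to 1.69 CPM there (3 counts), so Il2 was at least 46.0-fold lower in cluster 6 than in cluster 0.

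**Figure D1:**
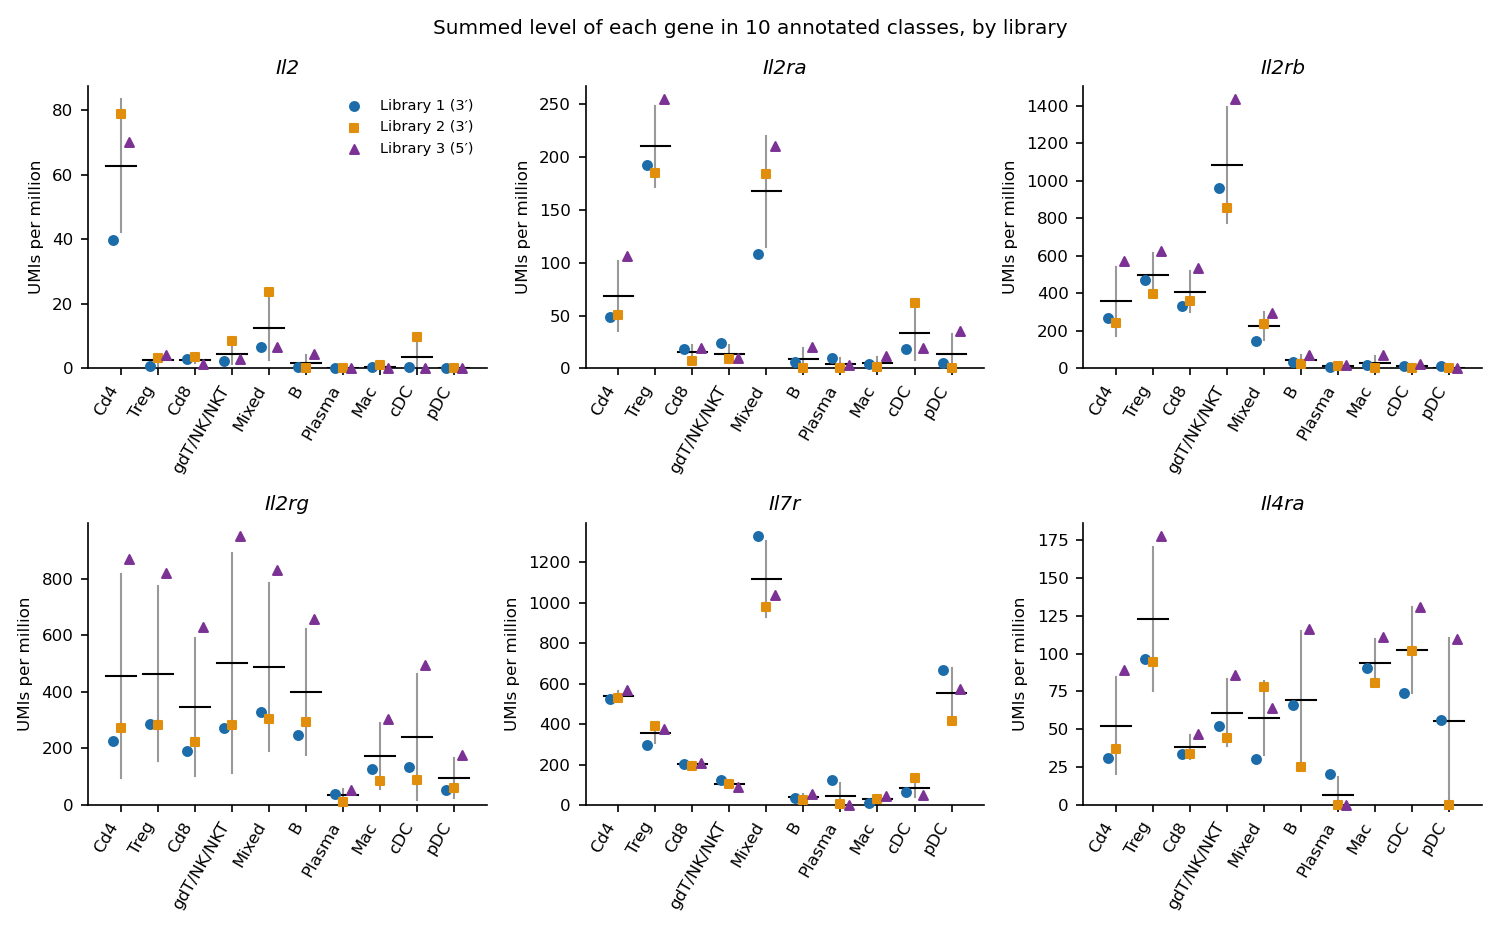
CPM (UMIs per 1000000, vertical axes) of the 6 genes in 10 classes, with 1 point per library, the mean as a black line and the SD as a grey bar. Il2 is high in Cd4 alone (39.7 to 78.7), Il2ra in Treg and Mixed, Il2rb in gdT/NK/NKT and Il7r in Mixed, while Il2rg is spread over most classes and highest in library 3 in all 10.

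The Il2 signal was uneven among cells. Of the 228 Cd4 cells with Il2, 130 had a single UMI. The highest 6 cells, each with at least 10 UMIs, held 168 of the 634 UMIs: 4 of these cells were in library 2, 2 in library 3 and none in library 1. The top cell, in library 3, had 69. After each cell was thinned to 1000 UMIs, Il2 was detected in 2.66%, 3.75% and 3.30% of Cd4 cells. B cells, taken here for comparison, gave 0 of 1430, 88 and 386 cells, which allows up to 0.210%, 3.41% and 0.777%. The thinned Cd4 share lay above these limits, which cover counting at this depth only. Median depths before thinning were 2504.5 UMIs in Cd4 and 3113.5 in B cells. Without thinning 6.51% ± 2.21 of Cd4 cells and 0.287% ± 0.384 of B cells had Il2. The B cells gave 10 UMIs in 5 cells, with 8 of these UMIs in library 3, where 1 cell held 6. Treg cells gave 0.186% ± 0.166 after thinning.

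Across the 8 tested classes, 34 of 48 gene-by-class tests against the mean of the other 7 classes passed (edgeR's quasi-likelihood test, adjusted p under 0.05), 18 higher and 16 lower. Over all genes, 30.9% of such tests passed. Mixed and Treg each had 4 of the 6 genes higher and none lower, where 8.48% of all genes were higher and 4.68% lower in Mixed (13.2% together) and 15.8% and 9.42% in Treg (25.2% together). Cd4 had 4 higher and 1 lower, against 19.8% and 10.7% of all genes (30.6% together). gdT/NK/NKT had 2 in each direction, against 14.9% and 10.5% (25.4%), and Cd8 had 1 higher and 2 lower, against 17.7% and 10.2% (27.9%). The share of members called lower was highest in macrophages, with 1 higher and 5 lower, against 25.8% and 22.1% of all genes (47.9%). B cells had 1 higher and 3 lower, against 20.8% and 16.4% (37.1%), and cDC the same counts, against 20.8% and 19.0% (39.8%). Il2 in Cd4 was higher by 4.32 ± 0.23 (log2, SE; edgeR adjusted p = 7.31e-13). Il2 was also called higher in Mixed, with 2, 11 and 2 UMIs (log2 1.77 ± 0.59, edgeR adjusted p = 0.049), but not without library 1 (1.60, adjusted p = 0.160) or library 2 (1.38, adjusted p = 0.494). Macrophages gave 2 Il2 UMIs, a level 0.0271 of that of the other 7 tested classes pooled (95% counting interval 0.00328 to 0.0983). Cd4 gave 634 of the 729 UMIs in that pool. Against the mean of the other classes, in which each class counts alike, the log2 value in macrophages was -2.79 ± 0.88 (edgeR adjusted p = 0.0104). This call was lost without library 2 (adjusted p = 0.0572). In Cd8, Treg, B, cDC and gdT/NK/NKT cells Il2 did not differ from the mean of the other classes by this test.

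**Figure D2:**
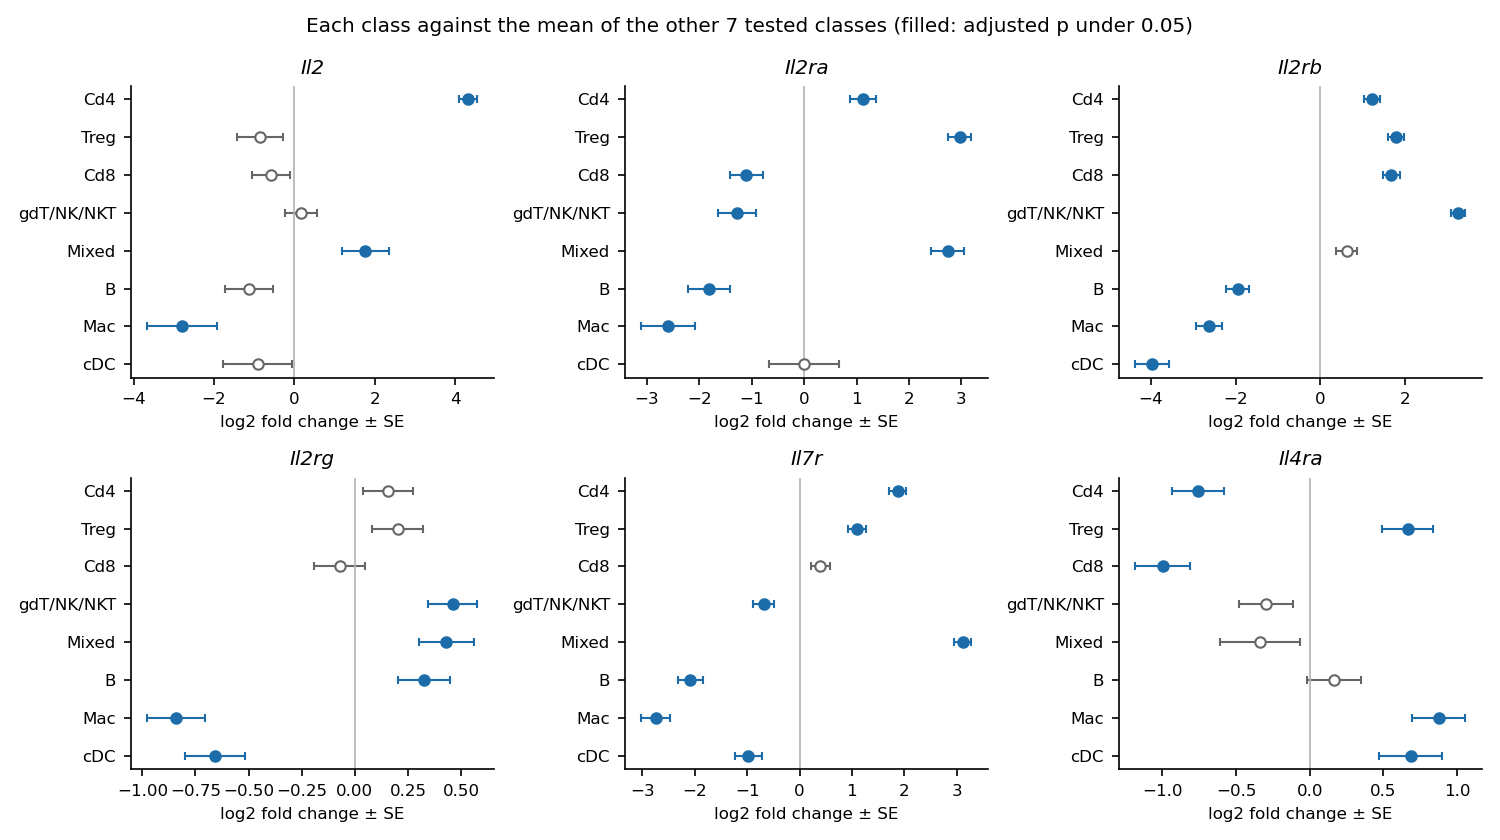
Log2 fold change ± SE (horizontal axes) of each gene in each of 8 classes against the mean of the other 7, with filled points where the edgeR adjusted p was under 0.05. Il2 stands out in Cd4 (4.32), Il2ra in Treg (2.97) and Mixed (2.73), Il2rb in gdT/NK/NKT (3.25) and Il7r in Mixed (3.12).

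Il2ra, the chain that raises the receptor's affinity, was highest in Treg and Mixed cells. It stood at 192, 184 and 254 CPM in Treg, at 108, 184 and 210 in Mixed and at 48.2, 51.0 and 106 in Cd4. Treg lay above Mixed in each library, by little in library 2, and Mixed lay above Cd4. Against the other classes Il2ra was higher by 2.97 ± 0.23 in Treg (edgeR adjusted p = 3.57e-10), by 2.73 ± 0.32 in Mixed (adjusted p = 4.73e-07) and by 1.11 ± 0.25 in Cd4 (adjusted p = 0.00103, but 0.0526 with DESeq2). Mixed and Treg did not differ by edgeR's test (log2 -0.20 ± 0.34, adjusted p = 0.797), while Mixed exceeded Cd4 (edgeR log2 of Cd4 over Mixed -1.42 ± 0.35, adjusted p = 0.00784). Il2ra was called lower in B, Cd8, macrophages and gdT/NK/NKT, the last not without library 3 (-0.79, adjusted p = 0.205).

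Within the Cd4 class the Il2ra level was highest in cluster 5, a group of 973 shallow cells. There it stood at 174, 243 and 345 CPM (57, 18 and 199 of the class's 231, 153 and 316 UMIs), against 36.0, 41.6 and 42.2 in cluster 0 and 57.6, 64.1 and 69.6 in cluster 6. The levels of cluster 5 did not overlap those of the other Cd4 clusters in any library. Without cluster 5, Il2ra in Cd4 was no longer called (log2 0.60, edgeR adjusted p = 0.0858). Cells of cluster 5 had a median of 861 UMIs, 4.78% ribosomal and 7.05% mitochondrial UMIs, against 3128, 27.2% and 3.23% in cluster 0. They also carried Foxp3 (275, 324 and 158 CPM) and Cd8a (171, 189 and 1135). The part of depth and of such cells in the levels of cluster 5 was not tested. In cluster 5 cells with a Foxp3 UMI Il2ra stood at 215, 327 and 692 CPM, and in those without at 164, 215 and 295.

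Il2ra was present in Treg cells with and without a detected Foxp3 UMI, at a lower level in the latter in every library. It stood at 195, 200 and 270 CPM in the Treg cells with a Foxp3 UMI and at 184, 142 and 162 in those without. In cluster 0 the few cells with Foxp3 (36, 8 and 19 cells) had 36.6, 59.2 and 124 CPM, from 5, 2 and 10 UMIs, and those without had 36.0, 41.3 and 38.5.

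Il2ra in the Mixed class lay in cells with and without T cell genes. Of its 291 cells, 33 had no UMI of the T cell genes Cd3e, Cd3d and Trac (14, 13 and 6 per library). These cells had 222, 511 and 311 CPM of Il2ra and 568, 618 and 590 of Gata3, a regulator of type 2 lymphoid cells, and no Il17a UMI. The Mixed cells with a T cell UMI had 90.1, 147 and 198 CPM of Il2ra and 90.1, 50.6 and 94.98 of Gata3. The counting intervals of Il2ra were apart in library 2 (95% exact Poisson 328 to 761 against 112 to 189) and overlapped in libraries 1 and 3. Il7r was high in both, at 1210, 809 and 559 in the cells without a T cell UMI and 1348, 997 and 1098 in those with. These splits of the Mixed class were drawn after its values were seen and were not tested.

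Among dendritic cells Il2ra lay mainly with Ccr7 and Fscn1. In conventional dendritic cells (cDC) with UMIs of both Ccr7 and Fscn1, genes of mature, migratory dendritic cells, Il2ra stood at 134, 202 and 113 CPM, from 28, 9 and 3 cells. In cDC with neither gene it stood at 1.46, 5.68 and 11.02, from 160, 16 and 22 cells. The 95% exact Poisson intervals, which cover counting error only, were apart in libraries 1 (91.6 to 189 against 0.177 to 5.28) and 2 (120 to 319 against 0.144 to 31.6), and overlapped in library 3 (13.7 to 409 against 1.34 to 39.8). Il15ra, the chain that presents interleukin 15, ran the same way, with 109, 157 and 56.7 CPM against 4.39, 0 and 5.51. So did Il15 itself, with 41.8, 22.4 and 113 against 0.731, 0 and 0. The Il15 values of libraries 2 and 3 and the Il15ra value of library 3 rest on very few UMIs. T cell genes were at or near 0 in the Ccr7 and Fscn1 cells: Cd3e gave 4, 0 and 0 UMIs, Trac 1, 0 and 0, and Foxp3 none. Il17a, which marks the Mixed class, gave 9, 0 and 0 UMIs there, and the part of other cells in the value of library 1 was not tested. The signalling chain Il2rb gave 4, 0 and 0 UMIs. The Ccr7 and Fscn1 split was drawn after the values were seen and has no test. For the class as a whole Il2ra was not called (log2 -0.0071 ± 0.66, edgeR adjusted p = 1).

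**Figure D3:**
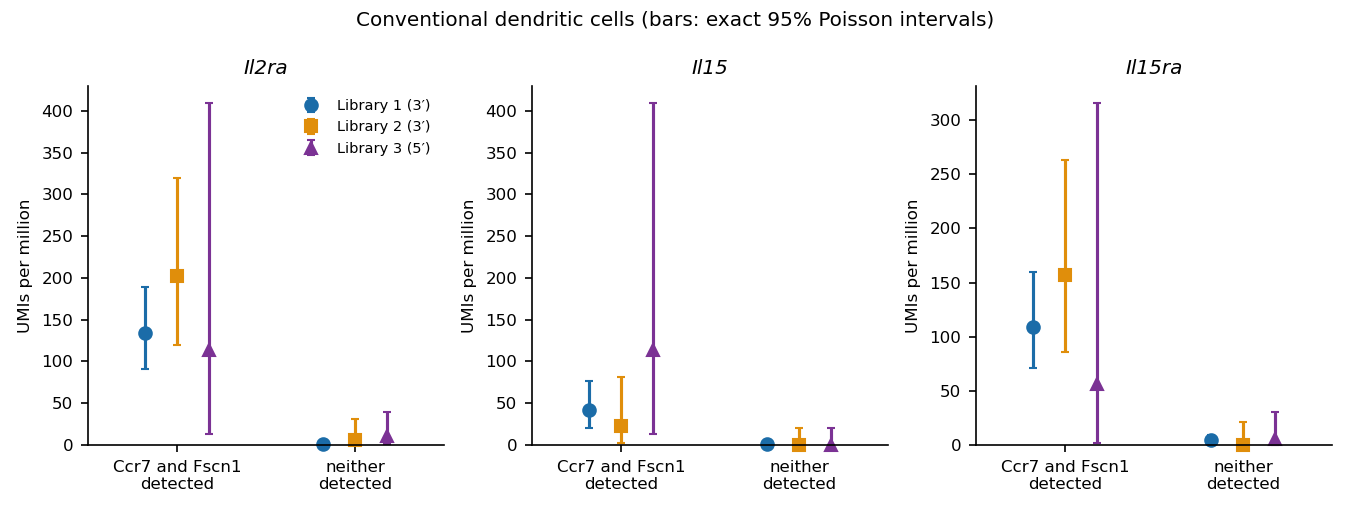
CPM (UMIs per 1000000, vertical axes) of Il2ra, Il15 and Il15ra in conventional dendritic cells with UMIs of both Ccr7 and Fscn1 and in those with neither, 1 point per library with its exact 95% Poisson interval. Il2ra lies at 113 to 202 in the former and at 1.46 to 11.02 in the latter.

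Il2rb, the chain that signals for interleukins 2 and 15, was led by the innate-like class. It stood at 961, 854 and 1434 CPM in gdT/NK/NKT cells and was higher there by 3.25 ± 0.17 (log2, edgeR adjusted p = 1.07e-13). Treg followed with 470, 395 and 627, then Cd8 with 333, 359 and 534 and Cd4 with 267, 240 and 571. The first class was apart from Treg (edgeR log2 1.29 ± 0.27, adjusted p = 0.000606), whereas Cd8 and Treg did not differ by the test (log2 -0.088 ± 0.26, adjusted p = 0.897). B cells, macrophages and cDC were called lower, by 1.95, 2.63 and 3.97 on the log2 scale. Within gdT/NK/NKT, cells with a UMI of Cd3e, Cd3d or Trac had 943, 814 and 1360 CPM and cells with none had 1008, 1034 and 1590, so Il2rb was high with and without T cell genes. Clusters 8 and 9 of this class had 948, 929 and 1463 and 983, 811 and 1316.

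Il7r, the receptor chain of naive and memory lymphocytes and of innate lymphoid cells, had another order. It stood at 1329, 978 and 1039 CPM in Mixed, at 522, 530 and 568 in Cd4, at 299, 391 and 376 in Treg and at 203, 190 and 209 in Cd8. Against the other classes it was higher by 3.12 ± 0.16 in Mixed (edgeR adjusted p = 1.22e-13), by 1.87 ± 0.16 in Cd4 and by 1.10 ± 0.18 in Treg. Mixed exceeded Cd4 by the same test (edgeR log2 of Cd4 over Mixed -1.09 ± 0.24, adjusted p = 0.00293). Plasmacytoid dendritic cells, which were not tested, had 665, 414 and 575 CPM, the value of library 2 resting on 2 cells. B cells, macrophages, cDC and gdT/NK/NKT were called lower, but cDC not without library 1 (-0.62, adjusted p = 0.151) and gdT/NK/NKT not without library 2 (-0.66, adjusted p = 0.0584) or library 3 (-0.52, adjusted p = 0.101).

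Il2rg, the chain shared by the whole family, was the most even of the 6. It lay between 84.8 and 328 CPM in libraries 1 and 2 over the 8 tested classes and between 305 and 952 in library 3. Library 3 was 2.42 to 4.42 times the mean of the other libraries in every tested class, and end of sequencing and library cannot be told apart. The largest class difference was a decrease by 0.84 ± 0.14 (log2) in macrophages (edgeR adjusted p = 1.11e-05), and gdT/NK/NKT were higher by 0.46 ± 0.12 (adjusted p = 0.00398). Smaller edgeR calls in B (0.32), Mixed (0.43) and cDC (-0.66) were lost without library 1 (0.30, 0.35 and -0.50) and without library 2 (0.26, 0.37 and -0.38).

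Il4ra, the binding chain for interleukin 4 and, with another partner, interleukin 13, was higher in both myeloid classes and in Treg. It stood at 90.1, 80.5 and 111 CPM in macrophages, at 74.1, 101 and 131 in cDC and at 96.6, 94.3 and 178 in Treg, and at 33.6, 33.7 and 47.2 in Cd8. Cluster 5, the shallow part of the Cd4 class, lay above all of these in every library (141, 175 and 217) and was not tested against them. Macrophages were higher than the other classes by 0.88 ± 0.18 (log2, edgeR adjusted p = 0.000241), cDC by 0.69 ± 0.21 (adjusted p = 0.0124) and Treg by 0.66 ± 0.17 (adjusted p = 0.00457). Macrophages, cDC and Treg did not differ from each other by edgeR's test (adjusted p = 0.543 to 0.968). The Treg call was lost without library 1 (0.63, adjusted p = 0.0725) or library 3 (0.57, adjusted p = 0.0557). Cd8 was lower by 1.00 and Cd4 by 0.76 on the log2 scale, the latter not without library 1 (-0.67, adjusted p = 0.063) and near no difference (-0.038) when each class was cut to equal cells.

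Treg and Cd4 cells, the receiver and the source of the textbook account, were compared directly. Of the 6 genes, Il2ra and Il4ra were higher and Il2 was lower in Treg, which is 3 of 6. Of all genes 8.23% were called, 3.94% higher and 4.30% lower. Il2 gave 12 UMIs in Treg (0.666, 3.31 and 4.26 CPM) and was lower by 4.53 ± 0.41 (log2, edgeR adjusted p = 8.87e-08). Il2ra was higher by 1.62 ± 0.30 (adjusted p = 0.000803) and Il4ra by 1.24 ± 0.23 (adjusted p = 0.000599), the latter not without library 1 (1.13, adjusted p = 0.0528). With equal cells per class neither receptor was called (1.05 and 0.43), and Il2 could not be tested at that depth. Il2rb (0.50 ± 0.26, edgeR adjusted p = 0.302), Il7r (-0.68 ± 0.24, adjusted p = 0.0851, but 0.0489 without cluster 5) and Il2rg (0.041 ± 0.16, adjusted p = 0.935) did not pass.

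Genes downstream of the receptor were split between Treg and Cd4. In this comparison 3.94% of all genes were higher and 4.30% lower in Treg. Of 15 genes listed for the interleukin 2 and STAT5 response, 3 were higher and 3 lower in Treg than in Cd4 (median log2 -0.063, against -0.047 over all genes). The higher ones were Gzmb, a cytotoxic granule protease (2.46 ± 0.46), the transcription factor Ikzf2 (1.99 ± 0.47) and the kinase Pim1 (0.90 ± 0.22). The lower ones were the survival gene Bcl2 (-2.73 ± 0.23), the cytokine Lta (-2.28 ± 0.34) and the kinase Pim2 (-1.70 ± 0.25). The feedback genes Cish and Socs2 differed by 0.040 and -0.063, without a call, and both were higher in Treg than in the mean of the other classes (log2 1.90 and 2.04). Of 8 JAK and STAT genes, Jak2 was called between Treg and Cd4, lower in Treg by 1.02. Of 16 listed regulators of the Il2 gene, 2 were higher in Treg, Foxp3 (4.05) and Crem (0.74), and 3 were lower, Nfatc1 (-1.04), Ikzf1 (-0.83) and Rel (-0.77). Of 6 tested genes listed as other helper cytokines, 3 were lower in Treg, Cd40lg (-3.38) and Ifng (-2.93) among them, and none higher. Of 3 tested gamma chain cytokines other than Il2, 2 were lower in Treg, Il21 (-6.13) among them, and none higher.

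Against the mean of the other classes, part of the signalling list was higher in each. In Cd4, 4 of 8 JAK and STAT genes were higher (of all genes 19.8%; list median 0.18, against 0.07 over all genes), led by Jak2 (1.22), Stat5a (1.13) and Stat5b (0.90), and none lower. In Treg, 4 were higher (of all genes 15.8%; list median 0.29, against 0.013), led by Stat5b (1.23), Stat5a (1.03) and Jak3 (0.76), the kinase that binds the gamma chain, and Stat6 was lower (-0.45). The response list had 10 of 15 genes higher and 1 lower in Cd4, against 19.8% and 10.7% of all genes (median 1.22, against 0.07). Tnfrsf4 (3.35), Lta (3.17), Socs2 (2.11) and Tnfrsf18 (2.10) were in front. In Treg the response list had 8 higher and 3 lower, against 15.8% and 9.42% of all genes (median 0.92, against 0.013). Tnfrsf4 (3.99), Ikzf2 (3.81), Tnfrsf18 (2.90) and Gzmb (2.18) were in front there. Macrophages had 12 of the 15 lower and 2 higher, against 22.1% and 25.8% of all genes (median -1.85, against -0.082).

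**Figure D4:**
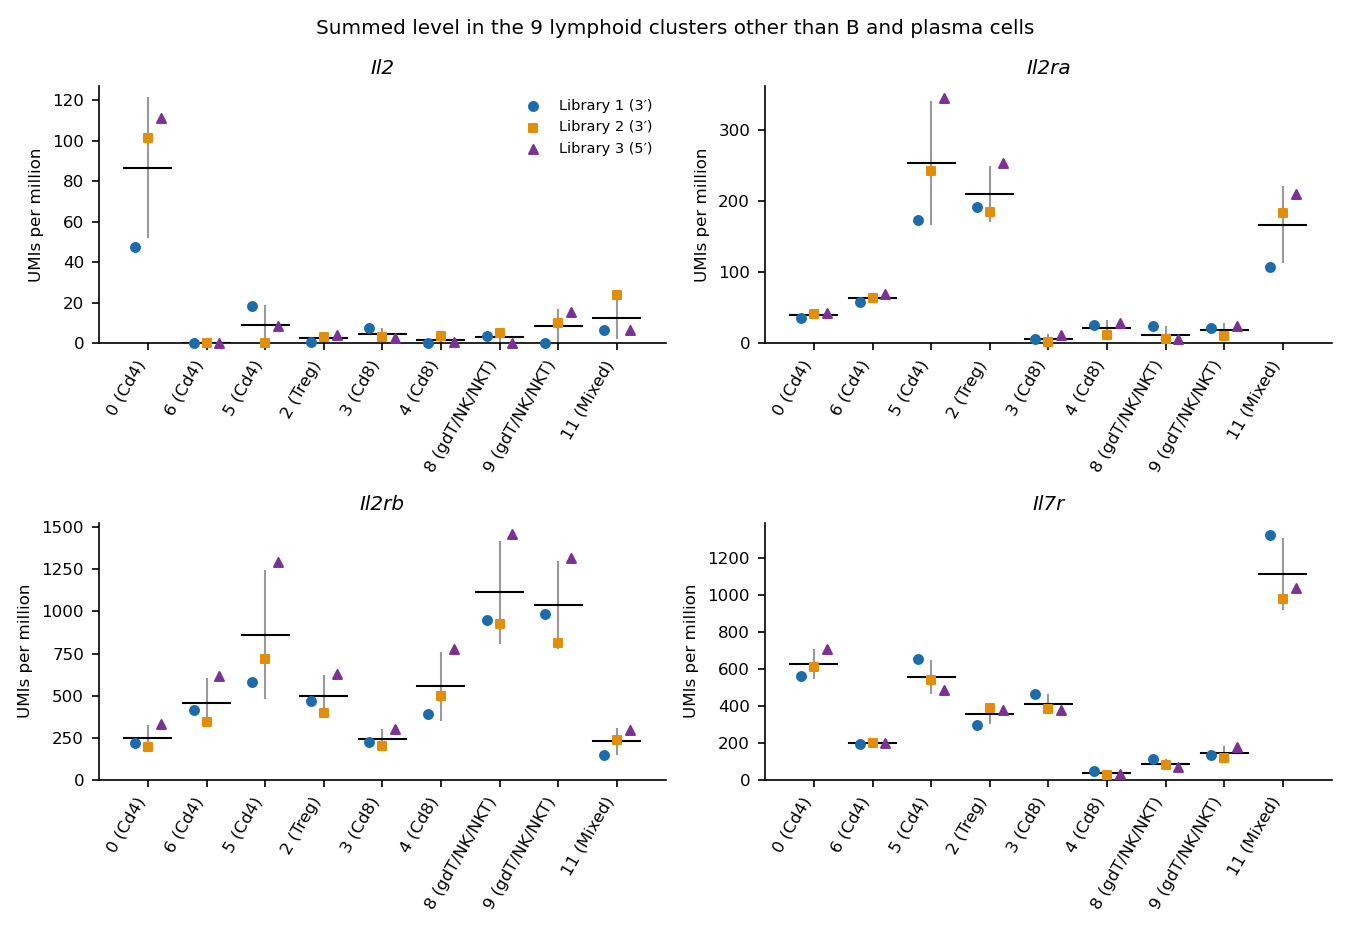
CPM (UMIs per 1000000, vertical axes) of Il2, Il2ra, Il2rb and Il7r in 9 lymphoid clusters, 1 point per library with the mean as a black line and the SD as a grey bar. Cluster 0 holds the Il2, clusters 5, 2 and 11 the Il2ra, clusters 8 and 9 the highest Il2rb, and cluster 4 is low in Il7r (23.9 to 50.4) beside cluster 3 (380 to 467).

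Among the Cd4 clusters Il7r and Il2 were both lower in cluster 6. In cluster 6 against cluster 0, 2 of the 6 genes were called, both lower (of all genes 6.91% were called, 3.03% higher and 3.89% lower): Il2, bounded above, and Il7r. Il7r stood at 194, 199 and 202 CPM in cluster 6 against 562, 614 and 710 in cluster 0, lower by 1.81 ± 0.25 (log2, edgeR adjusted p = 2.91e-06), and the clusters did not overlap. Il2ra (0.51 ± 0.35, edgeR adjusted p = 0.524) and Il2rb (0.73 ± 0.24, adjusted p = 0.0609) did not pass, though Il2rb did with another scaling (RLE, 0.75, adjusted p = 0.0484). Among the Il2 regulators, the repressors Prdm1 (2.60) and Ikzf3 (1.74) were higher in cluster 6 and Rel (-1.15) and Jun (-1.38) were lower. Stat5a was lower there by 1.29, and of the response list Socs2 was higher (1.56) and Myc (-2.64), Pim2 (-1.59), Lta (-1.27) and Socs1 (-0.90) were lower.

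Cluster 5 against cluster 0 gave 5 calls of 6, in a comparison in which 39.8% of all genes were called, 17.8% higher and 22.1% lower. Il2ra (2.05 ± 0.33), Il4ra (1.74 ± 0.26) and Il2rb (1.18 ± 0.25) were higher, and Il2 (-3.35 ± 0.57, with 6, 0 and 5 UMIs) and Il7r (-0.74 ± 0.25) were lower. Unscaled Il2rb stood at 581, 715 and 1293 CPM in cluster 5. Unscaled Il2rb and Il4ra of cluster 5 lay above those of Treg in every library, and Il2ra did so in libraries 2 and 3. Unscaled Il7r levels overlapped, with 654, 540 and 484 CPM in cluster 5 and 562, 614 and 710 in cluster 0. The scaling matters here: RLE size factors raised the log2 values by a median of 0.151 over 58 listed genes, and with them Il7r was not called (-0.58, edgeR adjusted p = 0.0709) while Il2rg was (0.42, adjusted p = 0.0417). The Il7r call was also lost without library 2 (-0.67) or library 3 (-0.59).

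In the CD8 lineage the receptor profile differed between the clusters. Cluster 4 against cluster 3 gave 4 calls of 6. Of all genes 14.7% were called, 7.86% higher and 6.83% lower. Il7r was lower in cluster 4, with 50.4, 23.9 and 33.2 CPM against 467, 382 and 380 (log2 -3.56 ± 0.27, edgeR adjusted p = 2.06e-11). Il2rb was higher, with 394, 495 and 775 against 227, 202 and 301 (1.08 ± 0.24, adjusted p = 0.00167). Il2ra was also higher, at 25.7, 11.6 and 28.2 against 6.39, 1.67 and 11.6 (1.64 ± 0.49, adjusted p = 0.0189), a call lost without library 1 (1.41, adjusted p = 0.154) and with DESeq2 (adjusted p = 0.0518). Il4ra was lower (-0.89 ± 0.25), but not called without library 1 (-1.04, adjusted p = 0.0538) or library 3 (-0.76, adjusted p = 0.122). Of the response list 5 genes were higher and 4 lower in cluster 4, with Tnfrsf4 (2.49), Socs2 (1.82) and Prf1 (1.51) above and Bcl2 (-1.51) below. The innate-like clusters 9 and 8 differed in none of the 6 genes by edgeR (of all genes 3.60% were called, 1.73% higher and 1.88% lower), and none of the 6 was called by DESeq2. Il7r alone had an unadjusted edgeR p under 0.05 (0.0293, log2 0.64).

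Detection of all chains of the high-affinity receptor in 1 cell was rare at this depth. After thinning to 1000 UMIs, Il2ra, Il2rb and Il2rg were found together in 2.72%, 1.27% and 5.31% of Treg cells (mean 3.10% ± 2.05, n = 3), in 0%, 2.48% and 4.35% of Mixed cells and in 0.310% ± 0.466 of cluster 0. Library 3 was the highest for Treg, Mixed and Cd4. Cluster 5 gave 1.80%, 3.13% and 12.2%, from the 111, 32 and 237 of its cells that reach 1000 UMIs. B cells gave none. Single chains were seen more often after thinning: Il2ra in 14.8% ± 2.18 of Treg cells and 0.485% ± 0.521 of B cells, Il2rb in 62.5% ± 10.0 of gdT/NK/NKT cells and 2.70% ± 1.80 of B cells, and Il7r in 65.8% ± 8.39 of Mixed cells and 2.16% ± 0.560 of B cells.

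Cells with an Il2 UMI differed from the other Cd4 cells in a small share of genes. In the Cd4 class 92, 71 and 65 cells had an Il2 UMI and 1692, 713 and 1157 had none, and sums of the former were compared with sums of the latter within each library. Of 8455 genes other than Il2, 229 were called (2.71%), 105 higher (1.24%) and 124 lower (1.47%). Tnfsf11 (RANKL, a TNF family ligand) stood at 329, 505 and 550 CPM with Il2 against 107, 198 and 204 without, higher by 1.46 ± 0.15 (log2, edgeR adjusted p = 2.43e-13). Next by p-value came Ifitm2 (1.19), Dusp14 (1.27), Marcksl1 (1.52) and Mir155hg (1.23), the host transcript of miR-155. The NF-kappaB family gene Rel, a known activator of Il2, stood at 641, 604 and 279 against 371, 290 and 167 (0.87 ± 0.15), with the inhibitor genes Nfkbia (0.84) and Nfkbid (1.03) also higher. Il10 (-4.89), Ccl3 (-2.68), Lztfl1 (-2.31) and Ccl5 (-1.85) were lower by the same rule, and Ikzf3 (-1.97) and Prdm1 (-1.74) were lower too. All cells of cluster 6, and all but 7 of the 973 cells of cluster 5, lie among those without Il2. Against cluster 0, Ikzf3 and Prdm1 were higher in cluster 6 (1.74 and 2.60) and in cluster 5 (2.22 and 2.02). Their values within cluster 0 alone are not given here. Leaving out a library ended the call of Cd83 (library 1), of Cd9, Nfkbia and Rel (library 2) and of Nfkbid (library 3).

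**Figure D5:**
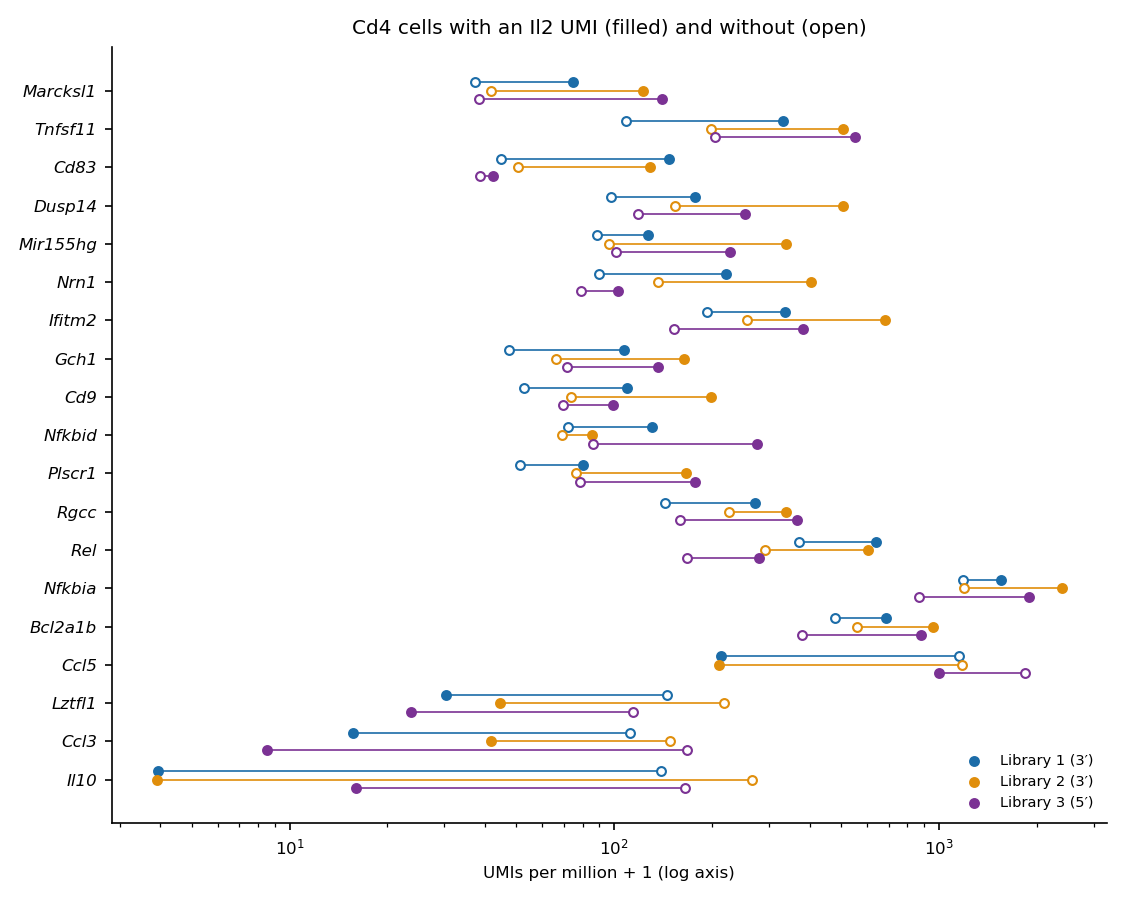
CPM plus 1 (log axis) of the named genes in Cd4 cells with an Il2 UMI (filled) and without (open), 1 point per library and group, joined by a line within a library. The genes were chosen for moving the same way in all 3 libraries. The first 15 are higher with Il2, as for Tnfsf11 (329, 505 and 550 against 107, 198 and 204), and the last 4 are lower.

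Within cluster 0 alone 29 genes were called, and 10 of the 15 named higher genes kept their call and direction: Tnfsf11 (1.04), Ifitm2 (0.98), Dusp14 (0.83), Marcksl1 (1.10), Mir155hg (1.01), Nrn1 (0.78), Gch1 (0.98), Nfkbia (0.48), Rel (0.72) and Bcl2a1b (0.61). Of the 5 lower genes Ccl5 kept its call (-0.76), while Il10 (-1.76, edgeR adjusted p = 0.157) did not. Cells with Il2 were deeper, with medians of 3426, 4429 and 3776 UMIs against 2321.5, 3393 and 1774. After thinning to 1000 UMIs the cells were grouped anew by their thinned Il2, which left 41, 28 and 29 with Il2. Cells that lost their Il2 UMIs moved to the group without. Between these groups 51 genes were called, with 7 of the 15 higher and all 5 lower genes among them. DESeq2 called 67 genes, with 9 of the 15 higher and 1 of the 5 lower genes among them. Without the library as a block edgeR called 0 genes, with 265 at an unadjusted p under 0.05.

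None of the 5 receptor genes was called by edgeR between Cd4 cells with and without Il2. Il2rb alone had an unadjusted edgeR p under 0.05 (0.00505). DESeq2 called none of Il2rb, Il2rg and Il7r and gave no adjusted p for Il2ra and Il4ra. Il2rb stood at 212, 180 and 362 CPM with Il2 and 293, 244 and 494 without (-0.45 ± 0.16, edgeR adjusted p = 0.115), lower in every library. The cells without Il2 include all of cluster 6 and most of cluster 5. Unscaled Il2rb there was 415, 346 and 614 and 581, 715 and 1293 CPM, against 217, 198 and 330 in cluster 0. Within cluster 0 the thinned share of cells with Il2rb was 19.3%, 12.7% and 38.7% with Il2. Without Il2 it was 21.2%, 19.1% and 27.5%, so library 3 went the other way. The Il2rb shares were not tested. Il2ra stood at 55.9, 95.9 and 67.8 against 51.5, 44.5 and 91.9 (0.29 ± 0.22, adjusted p = 0.652), with no shared direction. Within cluster 0, where the cells of cluster 5 are left out, Il2ra was higher in the cells with Il2 (1.04 ± 0.24, edgeR adjusted p = 0.0325). There the thinned share of cells with Il2ra was 3.41%, 5.63% and 6.45% with Il2 and 2.36%, 1.72% and 2.92% without. The former are 3 of 88, 4 of 71 and 4 of 62 cells, and the latter 26 of 1103, 8 of 466 and 12 of 411. These shares were not tested.

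Among the other ligands of the family Il21 was called higher in Cd4 (5.59 ± 0.23, edgeR adjusted p = 6.95e-15), at 164, 81.3 and 71.3 CPM. Il15 stood at 4.35, 11.8 and 2.85 in macrophages and 5.54, 6.54 and 7.92 in cDC, from 24 and 15 UMIs. Il4 gave 10 UMIs in Cd4, none of them in library 1, and 28 in Cd8, all of them in library 3, and Il7 gave at most 3 UMIs in any class. Il13 in cluster 0 came from library 2 (113 of 120 UMIs). Il7 is known to come mainly from stromal cells.

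The genes most like each member were ranked by Pearson's r of log2(level + 1) over 24 sums, the 8 tested classes in each of 3 libraries. These sums share libraries and depth, so the values are descriptions. Il2rb was most like Sla2 (0.967), Sh2d2a (0.956) and Lck (0.954), Il7r like Rora (0.900), Igsf9b (0.896) and D16Ertd472e (0.883), and Il2ra like Matn2 (0.888), Samsn1 (0.871) and Areg (0.851). Il2rg was most like Btg3 (0.896), Tor4a (0.895) and Ccar2 (0.892), and Il4ra was like Psen2 (0.804) and Parp9 (0.797). Il2 was most like Gm14718 (0.816), Spef2 (0.718) and Orai1 (0.716), the pore of the calcium channel upstream of NFAT. Among the members the highest value was that of Il2ra with Il7r (0.813) and the lowest that of Il4ra with Il7r (-0.396).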

How the data were processed

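Single-cell RNA of 3 libraries was analysed from the deposited UMI counts, whole numbers per gene and cell with no scaling. The percent of mitochondrial UMIs per cell is the authors' deposited column. Per the submitters' processing notes the authors used Cell Ranger 5.0.1, Seurat 4.0 and mm10, without their roles. Classes and clusters are the authors'. The members and lists were chosen with earlier results of these data known. All cells were kept, including 84 that scrublet called doublets (75, 8 and 1). UMIs were summed per class, cluster or Il2 status and library, with at least 20, 10 and 10 cells in every library, and tested with edgeR 4.0.16 (quasi-likelihood F-test, TMM, filterByExpr, library as a block, Benjamini-Hochberg over all tested genes: 10895, 10545 and 8455). Same-numbered sums come from 1 library: deviations from class means correlated at 0.286 to 0.915 (84 pairs, 10895 genes). Levels are unscaled UMIs per 1000000 (CPM). Shares of cells were taken after thinning to 1000 UMIs (seed 1), which left out 725 shallower cells. Intervals cover counting error only. Alternatives included DESeq2 1.42.0. The tests were tested on simulated data. Named genes were all 6 members, up to 4 called genes per list by size, 3 most alike genes, and 15 higher and 5 lower genes by p-value for Il2 cells, those moving the same way in every library; further genes were named after their values were seen. Genes that the rules would also name but that are withheld are not reported here.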

Additional observations from a re-analysis of the deposited data

How the results depend on the processing

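Of 34 calls of a gene in a class, 24 held whichever library was left out (27 to 33 calls in all), and DESeq2, RLE scaling, no filter, no doublets and no cluster 5 gave 32 to 34. Equal cells per class (99, 28 and 34) gave 22 calls of 40 tested, since Il2 fell below the filter, and no replicate block gave 19. For Treg against Cd4 the 3 calls became 0 with equal cells, 1 without the block and 2 to 3 without 1 library. For the cluster comparisons 11 calls of 24 became 6 without the block and 9 to 10 without 1 library. For cells with Il2 the 229 genes became 29 in cluster 0 only, 67 with DESeq2 (48 higher), 0 without the block, 51 after thinning (17 higher) and 109, 111 and 338 without library 1, 2 and 3. The cause was not tested, though fewer cells or samples enter most of these. Signs turned for uncalled values: Il2rg in Treg against Cd4 (-0.035 to 0.11 without 1 library, lowest without library 1, and -0.21 with equal cells) and in cluster 5 (-0.089 to 0.41 without 1 library, lowest without library 3), Il2ra in cells with Il2 (-0.20 to 0.65 without 1 library, lowest without library 2, and -0.069 thinned) and Il7r there (-0.22 to 0.52 without 1 library, lowest without library 3, -0.18 in cluster 0 and -0.23 thinned). The Cd4 share of Il2 UMIs was 91.9% after thinning and 86.1% to 88.7% without 1 library. Cd4 cells with Il2 were 6.01% at 2000 UMIs, 6.51% without thinning and 2.98% to 3.52% without 1 library. Treg cells with all chains were 9.80% at 2000 UMIs, 21.0% without thinning and 1.99% to 4.02% without 1 library. Of 86 single results all 86 kept their side and sign without doublets.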
